A study of Mus musculus with 2 samples.

Results

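The genes of VEGF, angiopoietin and apelin signalling were examined here across the cell classes of mouse lung. The 10 genes were 4 ligand genes (Vegfa, Apln, Angpt1 and Angpt2) and 6 receptor genes (Kdr, Flt1, Flt4, Tek, Tie1 and Aplnr), chosen by name, and each matched 1 of the 32286 features of the count tables. RNA was measured in single cells of whole lung in 2 droplet libraries, from female BALB/c mice 9 to 10 weeks old that had received intravenous injections for 3 weeks. The CM library came from mice given control media. The TCM library came from mice given tumor conditioned media, which the study made by culturing 4T1 mammary tumors in DMEM without serum, to set up an experimental pre-metastatic niche. How many mice went into a library was not given in the sources used here.

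VEGF-A is a secreted growth factor that endothelial cells read through the receptor tyrosine kinases VEGFR2 (encoded by Kdr) and VEGFR1 (encoded by Flt1), while VEGFR3 (Flt4) serves mainly lymphatic growth. In the alveolus, flat type 1 epithelial cells (AT1 cells) are known as a source of VEGF-A for the capillaries that lie against them. Angiopoietin-1, made by mural and stromal cells, activates the receptor TIE2 (Tek) and steadies vessels, angiopoietin-2 modulates the same receptor, and TIE1 is its partner. Lung capillaries hold a pair of endothelial states: aerocytes, which are spread thin over the gas exchange surface, and general capillary cells, which are held to maintain the capillary bed. Apelin (Apln) and its receptor (Aplnr) are commonly used to tell them apart.

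The CM library held 31944151 unique molecular identifiers (UMIs, each a counted RNA molecule) and the TCM library 36648719. Filters left 7988 and 7707 droplets, at a median of 2085 and 2346 UMIs, and the libraries shared 93 barcodes among them. Droplets were assigned to classes by marker genes that included none of the 10 genes, and class names carry "-like". Endothelial-like droplets numbered 2065 in CM and 1920 in TCM. They were divided into general capillary-like (1449 and 1433), aerocyte-like (246 and 246), arterial-like (67 and 44), venous-like (35 and 32) and lymphatic-like (13 and 10) droplets, and 255 and 155 took no subtype. Assignments at the lowest margin the gate allowed made up 66 and 67 of the aerocyte-like and 273 and 233 of the general capillary-like droplets. Levels are UMIs per 100000 UMIs of the class (CP100k) with 95% intervals. With 1 library per group there was no replicate and no test of TCM against CM, and every interval covers counting error only.

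The 5' flanks of Kdr, Apln and Tek are shown because these genes were among those that differed most between the capillary states: Kdr and Apln were higher on the aerocyte-like side and Tek on the general capillary-like side. Each run is the 250 bases before the RefSeq start site on build GRCm38.p6, read 5′ to 3′ on the strand of the gene. Capitals mark a match to CGGAA, a form of the core that ETS factors bind, on either strand. Other forms of that core were not marked. Kdr lies on the minus strand at chr5:75978456-75978705, Apln on the minus strand at chrX:48034854-48035103 and Tek on the plus strand at chr4:94739039-94739288.
Kdr: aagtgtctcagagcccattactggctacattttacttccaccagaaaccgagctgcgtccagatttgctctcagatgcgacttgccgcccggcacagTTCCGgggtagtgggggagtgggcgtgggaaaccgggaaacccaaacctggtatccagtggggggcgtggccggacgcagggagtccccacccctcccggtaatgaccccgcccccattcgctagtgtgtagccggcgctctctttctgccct
Apln: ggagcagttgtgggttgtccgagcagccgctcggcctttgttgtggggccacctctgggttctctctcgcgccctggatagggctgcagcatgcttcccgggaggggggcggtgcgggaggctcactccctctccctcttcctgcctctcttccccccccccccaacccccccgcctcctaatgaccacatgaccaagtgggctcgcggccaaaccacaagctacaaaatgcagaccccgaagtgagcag
Tek: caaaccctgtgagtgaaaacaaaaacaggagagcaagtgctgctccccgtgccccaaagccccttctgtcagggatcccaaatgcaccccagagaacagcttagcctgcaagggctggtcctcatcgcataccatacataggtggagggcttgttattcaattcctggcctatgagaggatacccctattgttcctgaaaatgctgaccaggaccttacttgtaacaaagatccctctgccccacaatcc
CGGAA occurred in the windows of Kdr and Tie1, 2 of the 7 members with an entry, and in 25.2% of all 32851 windows of this length. ACGTG, a form of the hypoxia response core, occurred in 1 of those 7, in the second of the 2 Vegfa windows, and in 16.6% of all windows. Angpt1, Angpt2 and Aplnr had no entry.

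The receptors were mainly endothelial in both libraries. Of all Kdr UMIs in kept droplets, 74.2% in CM and 77.9% in TCM were in endothelial-like cells, and for Tek the shares were 80.1% and 81.7%. For Aplnr they were 78.3% and 84.4%. Most of the remainder lay in droplets that the gate left unassigned, which held 19.0% and 17.4% of the Kdr UMIs.

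The ligands came from different places. Among assigned droplets, Vegfa was held mostly by AT1-like and general capillary-like cells and Angpt1 by alveolar fibroblast-like and pericyte-like cells. Angpt2 was held mostly by mesenchymal and endothelial cells together, and Apln by endothelial cells. AT1-like cells held 2121 of 5235 Vegfa UMIs in CM (40.5%) and 1444 of 4640 in TCM (31.1%). General capillary-like cells held 931 (17.8%) and 1201 (25.9%). These shares move with the number of cells caught in each class (367 and 278 AT1-like cells), so they describe the libraries and not the output of a cell. Alveolar fibroblast-like cells held 49.6% and 48.6% of Angpt1 UMIs, and pericyte-like cells 13.3% and 11.7%. Mesenchymal classes together held 56.5% and 54.5% of Angpt2 UMIs, against 24.3% and 26.0% in endothelial-like cells. Aerocyte-like cells held 35.0% of Apln UMIs in CM and 44.7% in TCM.

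**Figure D1:**
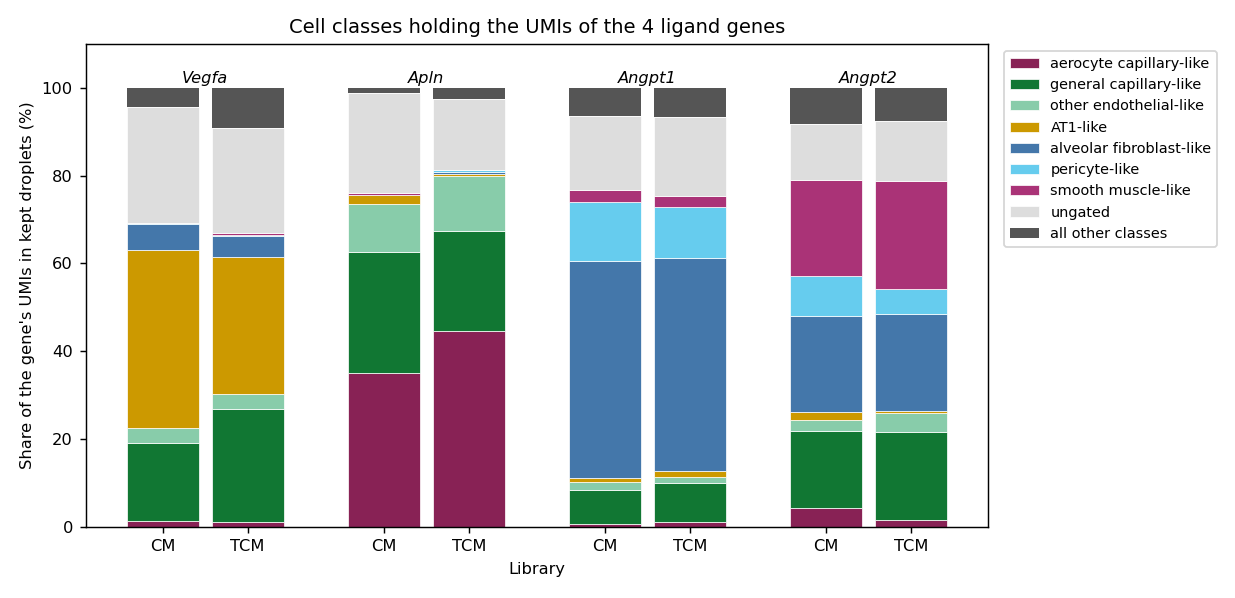
Share of each ligand gene's UMIs (%, vertical axis) held by each cell class, in bars for the CM and the TCM library; each bar adds to all UMIs of the gene in kept droplets. AT1-like cells held 40.5% of Vegfa UMIs in CM and 31.1% in TCM, and aerocyte-like cells 35.0% and 44.7% of Apln UMIs.

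Vegfa (chromosome 17, 46016993 to 46032369) stood at 157 CP100k (151 to 164) in AT1-like cells of CM and 125 (119 to 132) in TCM. Arterial-like cells followed among the classes with at least 20 Vegfa UMIs, at 30.3 CP100k (22.5 to 40.0) and 34.4 (24.9 to 46.3), from 67 and 44 cells. Of those cells, 39 and 25 were at the lowest margin the gate allowed. Their summed general capillary markers were 351 and 438 CP100k, beside 459 and 572 for the arterial markers. General capillary-like cells stood at 19.2 (18 to 20.4) and 22.1 (20.9 to 23.4). Aerocyte-like cells were lower, at 8.60 (6.64 to 11.0) and 5.91 (4.37 to 7.81), and their intervals did not reach those of the general capillary-like cells in either library. Alveolar fibroblast-like cells (12.1 and 10.7) and classical monocyte-like cells (8.94 and 11.5) had levels between those of aerocyte-like and general capillary-like cells. T-like cells, which should lack the gene, gave 0.0557 and 1.66 CP100k. Cells were also thinned to 1000 UMIs each, which leaves out shallower cells and kept 271 of 367 AT1-like cells of CM and 188 of 278 of TCM. A Vegfa UMI was then found in 70.1% of the kept AT1-like cells of CM and 63.8% of TCM, against 0% and 2.43% of T-like cells. Without thinning, over all cells, the AT1-like shares were 77.7% and 76.3%.

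Angpt1 (chromosome 15, 42424723 to 42676977) was at 51.1 CP100k (44.9 to 58.0) in pericyte-like cells of CM and 39.8 (33.9 to 46.4) in TCM. Alveolar fibroblast-like cells followed at 35.2 (32.9 to 37.6) and 31.0 (28.7 to 33.5). Smooth muscle-like cells stood at 6.21 and 4.67, and general capillary-like cells at 2.86 and 2.28. Pericytes wrap capillaries. Angpt2 (chromosome 8, 18690263 to 18741562) had few UMIs, 329 in CM and 277 in TCM. Its level was 8.94 (7 to 11.3) and 8.81 (6.84 to 11.2) in smooth muscle-like cells and 6.37 and 3.93 in pericyte-like cells. In all endothelial-like cells it was 1.22 (0.965 to 1.52) and 0.993 (0.777 to 1.25), from 80 and 72 UMIs.

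**Figure D2:**
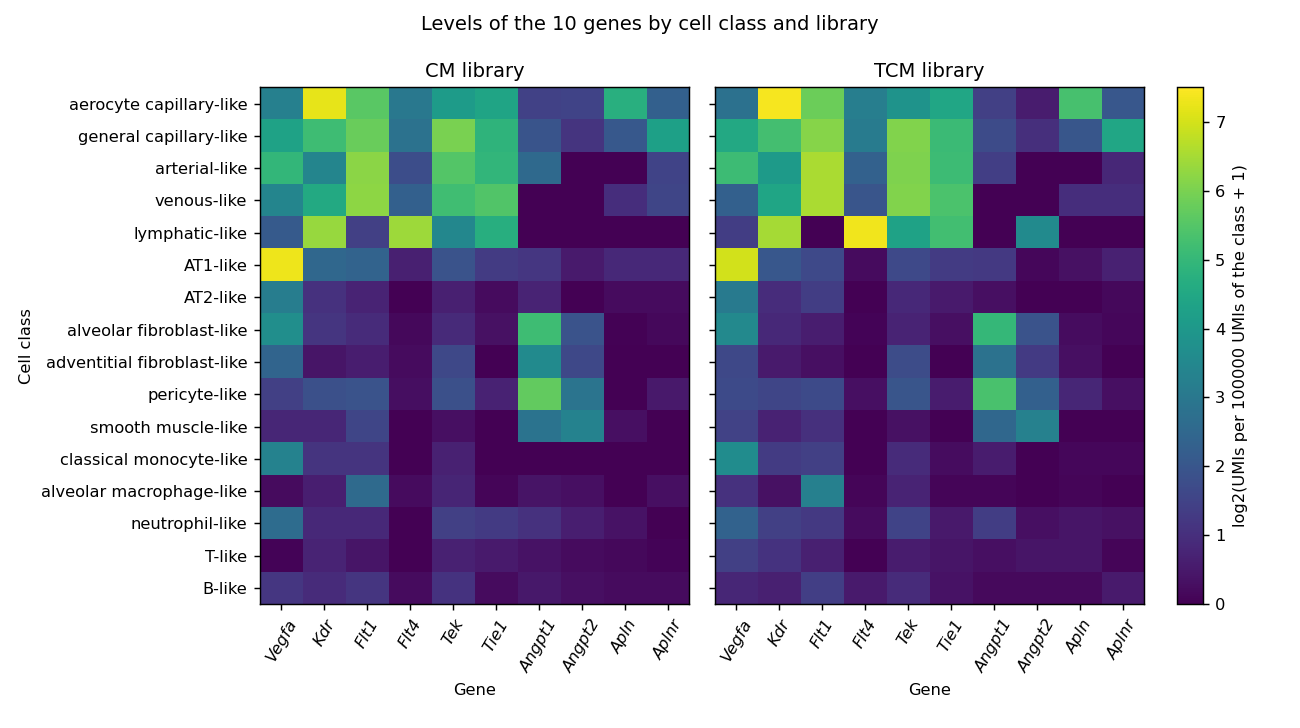
Levels of the 10 genes (columns) in 16 cell classes (rows) of the CM library (left) and the TCM library (right), as log2(CP100k + 1) on the color scale. Vegfa is highest in AT1-like cells, Angpt1 in pericyte-like and alveolar fibroblast-like cells, and Flt4 in lymphatic-like cells, which number 13 and 10.

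The capillary states differed in which genes of the axis they carried. Of the 10 genes, 5 differed by at least 2-fold in the same direction in both libraries (6.33% of 10547 genes did), 2 of them higher in aerocyte-like cells (2.47% of genes) and 3 higher in general capillary-like cells (3.86%). The subtype markers used for the gate included none of the 10. The 10 genes were chosen with earlier results of these data known, and Apln and Aplnr are commonly used to tell the states apart. The count is therefore a description and not a test.

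Kdr (chromosome 5, 75932827 to 75978458) was at 147 CP100k (139 to 156) in aerocyte-like cells of CM and at 34.9 (33.3 to 36.6) in general capillary-like cells, a 4.21-fold difference. In TCM the levels were 166 (158 to 176) and 37.6 (36.0 to 39.3), a 4.42-fold difference. Among the named subtypes, lymphatic-like cells came next, at 80.5 (59.4 to 107) and 89.1 (67.3 to 116). Venous-like cells stood at 22.3 and 20.4 and arterial-like cells at 9.71 (5.55 to 15.8) and 16.0 (9.76 to 24.7), with intervals that overlapped those of the venous-like cells in both libraries. Kdr was also found in mesothelial-like cells, at 48.1 (37.7 to 60.4) and 48.4 (37.6 to 61.3), from 15 and 29 cells.

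Apln (chromosome X, 48025146 to 48034853) divided the states furthest. It was at 25.7 CP100k (22.2 to 29.5) in aerocyte-like and 3.17 (2.69 to 3.71) in general capillary-like cells of CM, an 8.10-fold difference. In TCM it was at 38.7 (34.6 to 43.2) and 3.00 (2.56 to 3.50), a 12.9-fold difference. Its receptor gene Aplnr (chromosome 2, 85136225 to 85139923) lay the other way, at 3.97 (2.68 to 5.67) in aerocyte-like and 18.1 (17 to 19.4) in general capillary-like cells of CM, and at 3.14 (2.05 to 4.6) and 20.5 (19.4 to 21.8) in TCM.

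Tek (chromosome 4, 94739289 to 94874976) was at 62.1 CP100k (59.9 to 64.3) in general capillary-like and 16.3 (13.5 to 19.4) in aerocyte-like cells of CM, and at 66 (63.9 to 68.2) and 13.5 (11.1 to 16.3) in TCM. The log2 ratio of aerocyte-like to general capillary-like levels was -1.93 (-2.20 to -1.67) and -2.29 (-2.57 to -2.02). Tie1 (chromosome 4, 118471191 to 118490061) had the same direction at a smaller size, -0.51 and -0.71. Flt1 (chromosome 5, 147561604 to 147726011) had the same direction at a still smaller size. It was at 46.6 CP100k in aerocyte-like and 54.1 in general capillary-like cells of CM, and at 55.0 and 70.0 in TCM. Its log2 ratio was -0.22 (-0.38 to -0.06) in CM and -0.35 (-0.49 to -0.21) in TCM. Flt4 (chromosome 11, 49609263 to 49652739) differed by a log2 ratio of 0.19 (-0.26 to 0.62) in CM and 0.09 (-0.30 to 0.46) in TCM, intervals that include 0. Its level was far higher in lymphatic-like cells, at 83.9 (62.3 to 111) and 162 (132 to 197). Angpt1 and Angpt2 had at most 14 UMIs in aerocyte-like cells of either library, and their intervals between the states included 0.

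**Figure D3:**
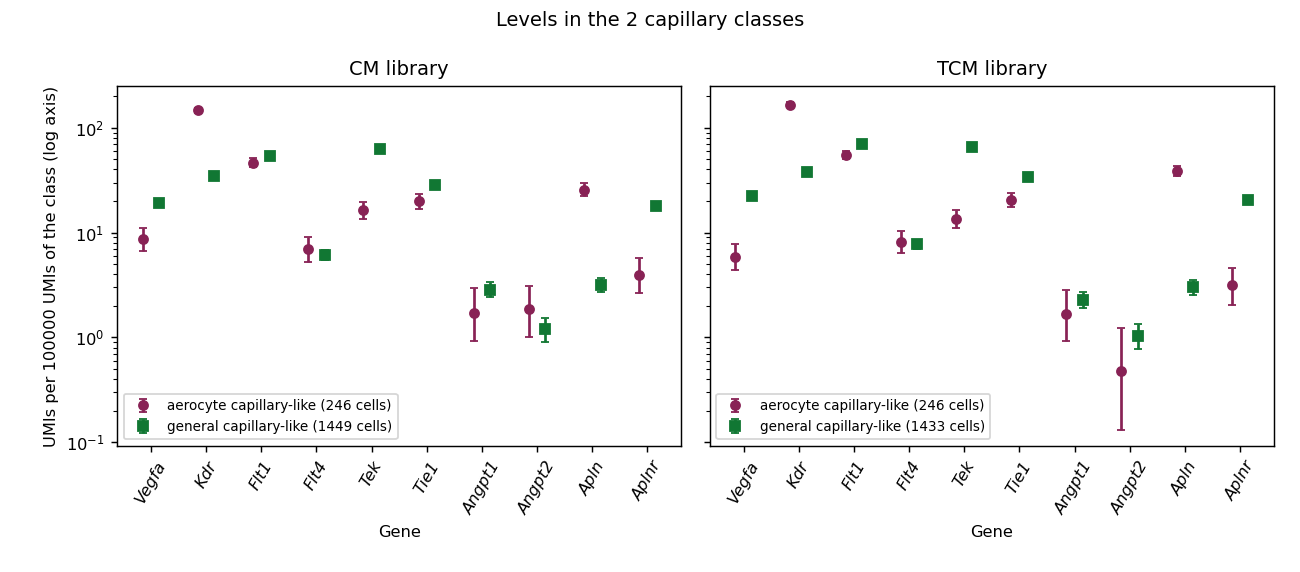
Levels (UMIs per 100000 UMIs of the class, log axis) of the 10 genes in aerocyte-like (circles) and general capillary-like (squares) cells of each library; bars are 95% counting intervals. Kdr and Apln are higher in aerocyte-like cells, and Vegfa, Tek and Aplnr in general capillary-like cells, in both libraries.

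Of 30 other genes of these pathways, listed by role, 26 could be compared between the states. In both libraries 1 was at least 2-fold higher in aerocyte-like cells (2.47% of genes were) and 4 were in general capillary-like cells (3.86%). Nrp1, a co-receptor for VEGF-A, was at 93.8 CP100k in aerocyte-like and 33.0 in general capillary-like cells of CM, and at 99.6 and 39.2 in TCM. Ptprb, the phosphatase that restrains TIE2, lay with Tek on the general capillary-like side, at 187 against 45.4 in CM and 196 against 47.8 in TCM. Nos3, the endothelial nitric oxide synthase, Adamts1, a secreted protease, and Vegfc, a ligand of VEGFR3, were the other 3. Vegfc had only 1 UMI in aerocyte-like cells of CM and 2 in TCM, against 54 and 68 in general capillary-like cells. Nos3 had 5 and 5, against 126 and 119. At these counts the intervals of Vegfc and Nos3 reached differences short of 2-fold. The nearest log2 limits were -0.53 in CM and -0.47 in TCM for Vegfc, and -0.71 and -0.60 for Nos3.

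Under TCM, most of the 10 genes were slightly higher in endothelial-like cells. In all endothelial-like cells, 8 of 10 were higher and 2 lower than in CM, with a median log2 ratio of 0.21 against 0.00 over all 12395 genes, and 0 of 10 passed 1.5-fold (10.5% of genes did). Endothelial-like cells of TCM were also deeper, at a median of 2796 UMIs against 2139. Their summed endothelial markers were 1616 CP100k in CM and 1797 in TCM, and the classical monocyte markers 72.4 and 127. The part of depth and of these markers was not tested.

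Apln in aerocyte-like cells was the exception in size. Its UMIs numbered 194 in 246 CM cells and 321 in 246 TCM cells, a log2 ratio of 0.59 (0.33 to 0.86), the only 1 of the 9 genes with at least 20 UMIs there to pass 1.5-fold (17.4% of genes did). In general capillary-like cells the log2 ratio of Apln was -0.08 (-0.40 to 0.25), and 0 of 10 genes passed (10.3% of genes did). Thinning to 1000 UMIs kept 176 of 246 aerocyte-like cells of CM and 183 of 246 of TCM, and 17% and 29.5% of these held an Apln UMI, against 0% and 0.487% of T-like cells. Unthinned shares over all 246 were 37.8% and 50.8%. The median depth of aerocyte-like cells was 1744 UMIs in CM and 2533 in TCM. When classes were taken from Leiden clusters (242 and 303 aerocyte-like cells), the log2 ratio was 0.14. It was 0.63 in the general capillary-like clusters, which held 438 and 502 cells against 1449 and 1433 under the gate. Without the deepest 6% of droplets the aerocyte-like value was 0.54, and scaled by the summed endothelial markers it was 0.40, both short of 1.5-fold. The remaining alternatives passed 1.5-fold, up to 0.89 when thinned to 1000 UMIs. In the same aerocyte-like cells the summed club cell markers were 76.6 CP100k in CM and 7 in TCM, and the classical monocyte markers 146 and 244; their part in the result was not tested.

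The receptors differed by less. Flt1 in general capillary-like cells was at 54.1 CP100k in CM and 70.0 in TCM, which gives 0.37 on the log2 scale (0.30 to 0.44). Flt4 followed at 0.33 (0.11 to 0.55), Tie1 at 0.25 (0.15 to 0.35), Aplnr at 0.18 (0.05 to 0.31), Kdr at 0.11 (0.02 to 0.20) and Tek at 0.09 (0.02 to 0.16). All 6 receptor genes were on the TCM side in general capillary-like cells under this gate, none past 1.5-fold. In the same cells the summed general capillary markers were 832 CP100k in CM and 1003 in TCM, and their part was not tested. With Leiden clusters Aplnr (-0.044) and Tie1 (-0.025) turned to the CM side, as did Tek when scaled by the summed endothelial markers (-0.019). In aerocyte-like cells, Kdr was at 0.18 (0.06 to 0.29) and Flt1 at 0.24 (0.04 to 0.44), whereas the intervals of Flt4, Tek, Tie1 and Aplnr included 0. Scaled to the summed endothelial markers, the Kdr ratio was -0.01 in aerocyte-like and 0.00 in general capillary-like cells.

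Vegfa differed between its sources. In AT1-like cells the log2 ratio of TCM to CM was -0.33 (-0.43 to -0.23), and in general capillary-like cells it was 0.21 (0.08 to 0.33). In aerocyte-like cells, with 65 and 49 UMIs, it was -0.54 (-1.11 to 0.02). None of the 3 passed 1.5-fold, but the aerocyte-like value did with a stricter gate (-0.83), without the deepest 6% of droplets (-0.75) and with free RNA subtracted (-0.67), and with Leiden clusters its direction turned (0.28). As a mean over cells the AT1-like value was -0.11. The libraries filled the AT1-like Leiden clusters unequally: a cluster of 115 CM cells had 11 TCM cells, one of 61 had 1, and one of 15 had 37, while the largest held 214 and 206. Summed endothelial markers in AT1-like cells were 114 CP100k in CM and 75.9 in TCM, and 5 of the 6 genes with at least 20 UMIs there were lower in TCM, 1 of them past 1.5-fold (16.4% of genes passed): Flt1, with 57 and 25 UMIs. The part of endothelial RNA in AT1-like droplets was not tested.

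As CP100k, Angpt1 was lower in TCM in its main sources. The log2 ratio was -0.36 (-0.66 to -0.07) in pericyte-like cells, from 241 and 162 UMIs, and it was -0.18 (-0.33 to -0.04) in alveolar fibroblast-like cells, from 899 and 675. Counted per cell, Angpt1 UMIs were 1.14 in CM and 0.853 in TCM for pericyte-like cells. For alveolar fibroblast-like cells they were 1.24 and 1.32, at median depths of 3035 and 4299 UMIs. In the pericyte-like cells the summed endothelial markers were 53.9 CP100k in CM and 86.9 in TCM and the AT1 markers 15.7 and 28.2, and their part was not tested. In adventitial fibroblast-like cells, with 64 and 26 UMIs, the Angpt1 log2 ratio was -0.86 (-1.58 to -0.18), past 1.5-fold, as 21.7% of genes were there. Angpt2 in all endothelial-like cells was at -0.29 (-0.77 to 0.18), a difference not detectable at this depth. In pericyte-like cells Angpt2 was at -0.70 (-1.67 to 0.22), from 30 and 16 UMIs, where 18.4% of genes passed 1.5-fold.

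**Figure D4:**
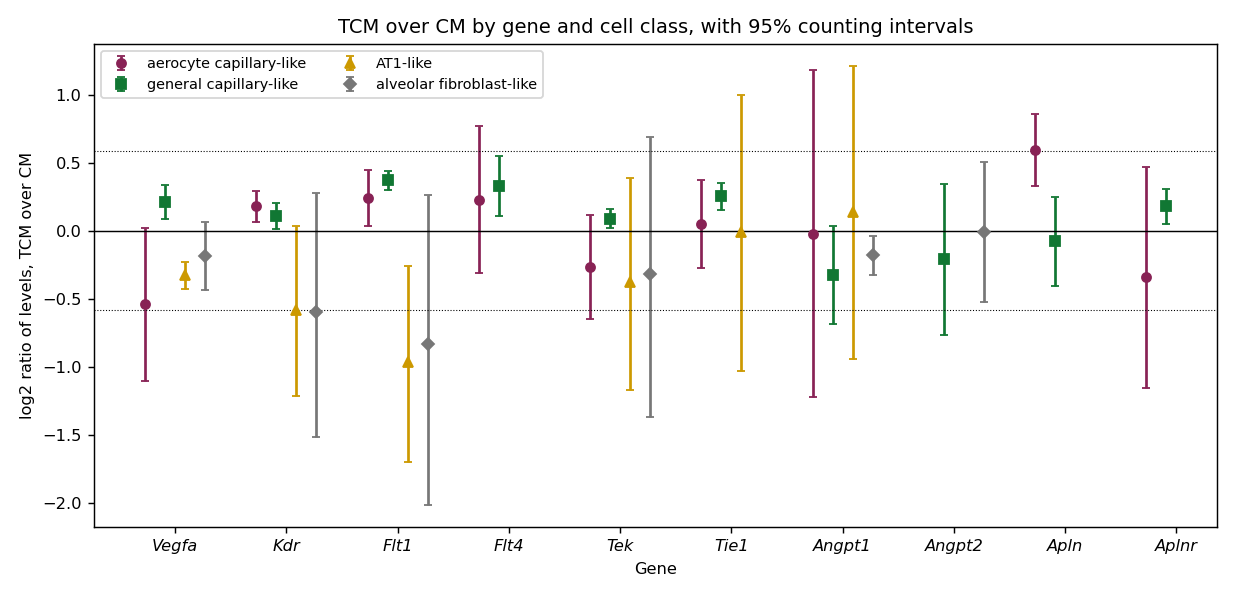
Log2 ratio of levels in TCM over CM (vertical axis) for each gene with at least 20 UMIs in aerocyte-like, general capillary-like, AT1-like and alveolar fibroblast-like cells; bars are 95% counting intervals and dotted lines mark 1.5-fold. Apln in aerocyte-like cells (0.59) lies above the upper line, and Flt1 in AT1-like (-0.96) and Kdr and Flt1 in alveolar fibroblast-like cells lie below the lower one.

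Large ratios were also found in classes with few cells. Flt4 in lymphatic-like cells had 50 UMIs in 13 CM cells and 102 in 10 TCM cells, a log2 ratio of 0.95 (0.45 to 1.47), where 32.7% of genes passed 1.5-fold. Tek in venous-like cells had 37 and 68 UMIs, 0.88 (0.28 to 1.5), where 28% passed, and 10 cells held 64.9% and 79.4% of them. In the same venous-like cells the summed AT1 markers were 143 CP100k in CM and 7.78 in TCM, the alveolar fibroblast markers 44.7 and 4.86 and the aerocyte markers 98.1 and 34, and their part was not tested. In arterial-like cells, where 28% of genes passed, Kdr had 16 and 20 UMIs, and the intervals of its levels overlapped. Tek had 73 and 82 UMIs there and was short of 1.5-fold. Kdr in ciliated-like cells had 41 and 5 UMIs in 49 and 40 cells, where 32.6% of genes passed, and 10 cells held 90.2% of the CM count. Outside the vessels, Flt1 in alveolar macrophage-like cells had 64 and 127 UMIs, at 5.07 CP100k (3.90 to 6.47) and 8.64 (7.20 to 10.3), where 17.5% of genes passed. Summed endothelial markers in those cells were 9.03 and 15.6 CP100k, and their part was not tested.

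The other pathway genes were compared in the same way. In general capillary-like cells, 26 of 30 had at least 20 UMIs and 0 passed 1.5-fold (10.3% of genes did). In aerocyte-like cells, 2 of 21 were higher and 7 lower past 1.5-fold (17.4% of genes passed in either direction). The higher ones were Arnt, the partner of the hypoxia-inducible factors, with 13 and 32 UMIs (log2 ratio 1.17, 0.20 to 2.22), and Rcan1, an inhibitor of calcineurin, with 16 and 27. Among the lower ones, Vegfb had 17 and 7 UMIs, Vegfd 26 and 11, Adamts1 53 and 34 and Cxcr4 14 and 10. Egln1, an oxygen sensor, had 28 and 15, Hif1a 39 and 28 and Esm1, a tip cell gene, 25 and 18. The intervals of Rcan1, Cxcr4, Hif1a and Esm1 included 0. In AT1-like cells, 2 of 20 were higher and 4 lower (16.4% of genes passed). Ptprb had 162 and 51 UMIs there, Esm1 21 and 1, Adamts1 42 and 15 and Nr4a2 17 and 7. The endothelial markers of these cells are given above. Svep1, with 7 and 13 UMIs, and Arnt, with 22 and 31, were higher. Their intervals and that of Nr4a2 included 0.

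Elsewhere the genes were found at low counts, many of them near the number of UMIs that free RNA, taken up by droplets from outside cells, was estimated to give. In alveolar fibroblast-like cells, Kdr had 32 and 18 UMIs and Flt1 23 and 11, both past 1.5-fold (11.8% of genes were), against estimates of 16.5 and 21.1 for Kdr and 13.4 and 23.2 for Flt1. Vegfa in AT2-like cells was well above its estimate, with 96 and 125 UMIs against 5.10 and 11.0, and the 2 levels, 8 and 7.36 CP100k, had overlapping intervals. In smooth muscle-like cells, Vegfa had 6 and 14 UMIs and Flt1 16 and 8, where 18.7% of genes passed 1.5-fold, and Vegfa in adventitial fibroblast-like cells had 25 and 9. Neutrophil-like cells, which numbered 245 in CM and 1453 in TCM, held 19 and 107 Vegfa UMIs against an estimate of 4.90 and 53.6. Their Kdr (3 and 43), Flt1 (3 and 35) and Tek (6 and 48) lay below the estimate in TCM.

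Each gene's levels over 15 classes in both libraries (30 points) were set beside those of 11881 other genes by Pearson correlation of log2(CP100k + 1), as a description, since points of a library share its depth and free RNA. The 3 closest genes were Ddah1, Tmcc2 and Sema7a for Kdr (0.98 for the first), Edil3, Ccdc184 and Pcdhac2 for Apln (0.98), Dll1, Sema3g and Gm11730 for Aplnr (0.99), Tmem44, Bmp6 and Aplnr for Tek (0.97) and Ushbp1, Cyyr1 and Arhgef15 for Tie1 (0.99). For Flt4 they were Robo4, Ccm2l and Nova2 (0.99), and for Flt1 they were Flt4, Cx3cl1 and Ushbp1 (0.94). The ligand genes had Zfp57, Hopx and Arhgef26 for Vegfa (0.86), Tbx4, Pla2r1 and Ism1 for Angpt1 (0.95) and Des, Smtn and Atp1b2 for Angpt2 (0.93). Hopx, Sema3g and Des are themselves markers of the gate.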

How the data were processed

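The 2 libraries of whole lung were made on a droplet platform, and the authors mapped the reads with Cell Ranger (version 4 per the file headers) to mm10 (GRCm38.p6). The submitters' processing notes also name Seurat. The deposited matrices hold raw counts of UMIs per gene and barcode, with no normalization. Droplets with at least 500 UMIs, at least 200 genes and at most 10% mitochondrial UMIs were kept.

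A droplet took the class, of 25, with most of its 10 markers detected, if at least 3 were detected with a lead of at least 2 over classes of other lineages and 1 within its lineage; endothelial-like droplets were divided by 8-gene lists. No doublet caller was run. The lead required by the gate leaves some droplets with mixed markers unassigned and assigns others, and removal of the deepest 6% was an alternative. UMIs were summed per class and library. Ratios carry conditional binomial, levels exact Poisson and shares Clopper-Pearson intervals, at 95%. A gene was called past 1.5-fold (TCM over CM) or 2-fold in both libraries (between capillary states) with at least 20 UMIs. The members and lists were chosen with earlier results of these data known. Members with at least 20 UMIs in a class were named in many classes but not in all. Named list genes were those past 1.5-fold in aerocyte-like and AT1-like cells and those past 2-fold between the capillary states. The 3 closest genes to each member by correlation were also named. Free RNA, profiled in droplets of at most 50 UMIs, came to 133 UMIs a cell in CM and 261 in TCM, from 2 secretory genes in lymphoid classes; values are not corrected for it. Coordinates are from GENCODE M21 (32235 of 32286 identifiers matched) and promoter windows from RefSeq. Numpy 2.4.6, scipy 1.17.1 and leidenalg 0.10.2 were used. Ratios and intervals were tested on simulated Poisson counts, which hold no spread between cells or libraries beyond counting error.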

Additional observations from a re-analysis of the deposited data

Results flagged for a closer look

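A pair of genes had ratios of TCM to CM on opposite sides of 0, beyond their counting intervals, in different cell classes; with 1 library per group the difference between classes was not tested. Vegfa had a log2 ratio of 4.90 (2.25 to 10.3) in T-like cells, from 1 and 20 UMIs, and -0.33 in AT1-like cells, a gap of 5.23. The free RNA estimate for T-like cells was 13.2 Vegfa UMIs in CM and 18.2 in TCM. Flt1 had a log2 ratio of 1.25 (0.08 to 2.6) in AT2-like cells, from 8 and 27 UMIs, and -0.96 (-1.70 to -0.26) in AT1-like cells, a gap of 2.22. The free RNA estimate for AT2-like cells was 4.72 Flt1 UMIs in CM and 13.6 in TCM.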

How the results depend on the processing

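No paired analysis was possible because each group held 1 library. The 5 genes past 2-fold between the capillary states numbered 5 under all 8 alternatives, and the Angpt1 ratio in pericyte-like cells stayed between -0.50 and -0.14 under 9. Other log2 ratios of TCM to CM left their counting interval under some alternatives, and the cause was not tested. With Leiden clusters the log2 ratios were -0.18 for Vegfa in AT1-like cells, and -0.011 for Kdr and 0.14 for Apln in aerocyte-like cells. In the general capillary-like Leiden clusters (438 and 502 cells) they were 0.36 for Kdr, -0.044 for Aplnr and 0.010 for Tek. Thinned to 1000 UMIs they were -0.17 for Vegfa, 0.032 for Kdr and 0.89 for Apln in the same classes, and -0.79 for Angpt2 in endothelial-like cells. Scaled by class markers they were -0.43 for Vegfa, -0.010 and 0.0014 for Kdr in aerocyte-like and general capillary-like cells, and -0.019 for Tek. Without the deepest 6% of droplets Kdr was at 0.061 and 0.0014. As a mean over cells Vegfa was at -0.11. The count of members past 1.5-fold in the capillary-like classes, 1 as reported, was 3 with a stricter gate (Apln, Vegfa and Angpt1), 2 with Leiden clusters (Apln and Angpt2, both in general capillary-like cells), 2 with free RNA subtracted (Apln and Vegfa) and 2 when 1 UMI in each library sufficed (Apln and Angpt2). Without the deepest 6% of droplets the 1 gene was Vegfa in aerocyte-like cells, at -0.75, in place of Apln. Depth limits Angpt2 most, with 329 and 277 UMIs in all.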

Other observations

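Endothelial-like droplets that took no subtype, 255 in CM and 155 in TCM, had 329 and 641 Kdr UMIs, at 52.4 and 91.4 CP100k (log2 ratio 0.80, 0.61 to 1), where 22% of genes passed 1.5-fold. In the same droplets the summed aerocyte markers were 350 CP100k in CM and 597 in TCM and the endothelial markers 1343 and 1842, and their part was not tested. Their Apln stood at 9.39 and 12.7 CP100k, and their Vegfa at 20.1 and 15. Droplets left unassigned, 1566 and 1069, held 1378 and 1115 Vegfa UMIs and 868 and 977 Flt1 UMIs.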
